A study of Saccharomyces cerevisiae with 40 samples.

Results

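Most of the 41 genes described here encode subunits of the machinery that starts and carries out transcription by RNA polymerase II in budding yeast. They were taken by name, as every gene called *TAF*, *MED*, *SRB* or *SPT* followed by a number alone that could be found by its systematic identifier in all 4 count tables of the series, and they are 41 of 6600 genes present in all of them. By name they comprise 14 *TAF*, 7 *MED*, 6 *SRB* and 14 *SPT* genes. The rule itself uses no measured value, but it was set with earlier results of these data known.

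The series compared *def1Δ* cells, and in 1 experiment *dhh1Δ* cells, with WT cells, given as of the W303 background and grown to log phase. *DEF1* encodes a cytoplasmic and nuclear factor that promotes elongation and the removal of stalled RNA polymerase II, and *DHH1* encodes a helicase of mRNA decapping. The study's strain list gives a W303 *def1Δ* strain with a KanMx marker and names no *dhh1Δ* strain. The mating type listed for these strains is set beside the libraries below. Steady-state total RNA was measured in 2 *def1Δ* and 2 WT libraries. RNA labeled with 5 mM 4-thiouracil (4tU) and purified through the label was measured in 9 *def1Δ* and 9 WT libraries, 2 per strain at 6, 9, 24 and 90 min and 1 per strain at 12 min. In ribosome profiling, the RNA of the lysate (input) was measured in 3 *def1Δ*, 3 *dhh1Δ* and 3 WT libraries, and ribosome-protected footprints in 3 *def1Δ* and 3 WT columns.

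TFIID is the factor that recognises the core promoter. It consists of the TATA-binding protein (TBP, product of *SPT15*) and its associated factors, the TAFs, some of which also belong to the coactivator SAGA together with several SPT proteins. Mediator, built of MED and SRB proteins in head, middle, tail and kinase modules, carries signals from activators to the polymerase. Other SPT proteins act after initiation: Spt4-Spt5 binds the elongating polymerase, and Spt6 and Spt16 are histone chaperones that handle nucleosomes in its path. The SPT name comes from a genetic screen with transposon insertions, so it also covers genes whose products are not part of this machinery, such as *SPT14*, which encodes the catalytic subunit of an enzyme of GPI anchor synthesis.

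Library totals were 9954503 to 14243535 counts for steady-state RNA, 6026474 to 16318100 for labeled RNA, 14894073 to 45654269 for input RNA and 4397482 to 8635312 for footprints. *DEF1* was measured at 0.152 to 0.208 CPM (counts divided by the scaled library size in units of 1e6) in *def1Δ* and 101 to 158 CPM in WT steady-state RNA, at 0 to 0.26 CPM in *def1Δ* and 109 to 263 CPM in WT labeled RNA, and at 4.76 to 7.48 CPM in *def1Δ* and 790 to 995 CPM in WT input RNA. *DHH1* was lower but present in *dhh1Δ* input RNA, at 65.0 to 85.1 CPM against 216 to 305 CPM in WT. The 4 alpha-specific mating genes summed to 1993 to 2281 CPM in *dhh1Δ* and 34.3 to 39.2 CPM in WT input RNA, and the 5 a-specific genes to 36.5 to 43.8 CPM in *dhh1Δ* and 1623 to 1851 CPM in WT, so that in every *dhh1Δ* comparison the deletion and the mating type cannot be told apart. In *def1Δ* input RNA the sums were 35.8 to 43.0 CPM for the alpha-specific and 1043 to 1240 CPM for the a-specific genes. These WT and *def1Δ* libraries thus carried mostly a-specific transcripts, while the study lists W303 and its *def1Δ* strain as mating type alpha. Which listed strains gave the libraries is not settled here. The 7 mitochondrial genome genes summed to 1584 to 1707 CPM in *def1Δ* and 3529 to 3713 CPM in WT steady-state RNA, and 4 of them in *def1Δ* and 1 in WT were under 1 CPM in every library. Of the 6 tested, 5 were lower in *def1Δ*. The other, *COX3*, was higher, at 1427 and 1341 CPM in *def1Δ* and 611 and 562 CPM in WT. In labeled RNA 2 genes, and in input RNA 1, were under 1 CPM in every library, in *def1Δ* as in WT. The *def1Δ* steady-state libraries thus differed in these genes from the other *def1Δ* RNA libraries. The part of the steady-state difference in the steady-state results was not tested.

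A feature of the *def1Δ* libraries touched 2 of the 41 genes directly. Relative to WT, genes of chromosomes I and III were lower as whole chromosomes in the *def1Δ* labeled, input and footprint libraries. Their median log2 changes were -0.99 and -1.15 at 6 min of labeling and -0.95 and -0.99 in input RNA, against 0.03 and 0.05 over the other 14 chromosomes. In steady-state RNA the medians of chromosomes I and III were -0.0018 and -0.04. *TAF2* and *SRB8* lie on chromosome III and no member lies on chromosome I. For these 2 genes the deletion of *DEF1* and the state of chromosome III cannot be told apart in the labeled and profiling libraries, and gene copy number was not measured. For each comparison, the count of called members below is therefore also given for the 39 other genes where it differs.

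**Figure D1:**
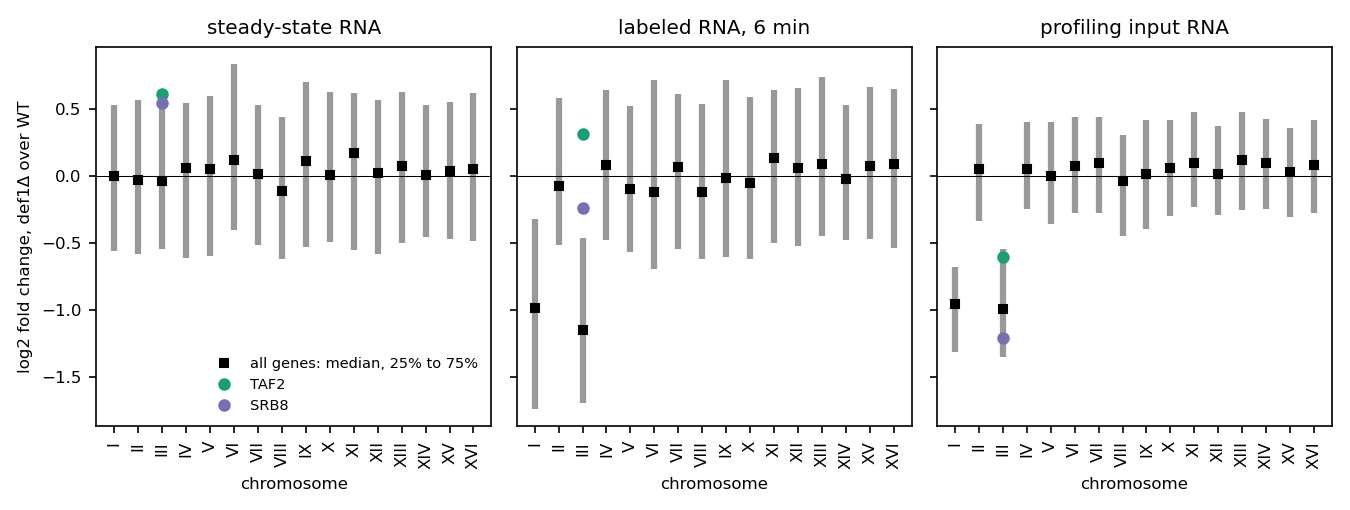
Median log2 change of *def1Δ* over WT (vertical axis) for all tested genes of each chromosome (horizontal axis) in steady-state RNA, labeled RNA at 6 min and input RNA, with *TAF2* and *SRB8* marked on chromosome III. Chromosomes I and III sit near -1 in labeled RNA at 6 min and in input RNA and near 0 in steady-state RNA.

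The coding regions of the 41 genes range from 309 bases (*SPT4*) to 4356 bases (*SPT6*), with a median of 1296 bases, against a median of 1194 bases over 6027 coding genes. An intron interrupts 3 of them (*SPT14*, *SRB2* and *TAF14*). In WT steady-state RNA, levels per kilobase of coding region were highest for *SRB2* (115 ± 36.5 CPM per kb, SD, n = 2) and *SPT15* (48.6 ± 1.48 CPM per kb) and lowest for *TAF7* (1.47 ± 0.34 CPM per kb). The median over the members was 8.24 CPM per kb, against 11.5 CPM per kb over all coding genes. In WT input RNA the members' median was 54.1 CPM per kb and that of all genes 52.6 CPM per kb, and in WT footprints 33.8 and 29.5 CPM per kb. The members' median percentile among coding genes was 40.5 in steady-state RNA, 50.9 in input RNA and 53.8 in footprints.

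Upstream sequence is shown for 4 members on which the results turn, to set their promoters beside the values that follow. *SPT15* was called lower, and *SPT16* higher, in *def1Δ* steady-state RNA, input RNA and footprints. *SPT6* and *TAF5* were called higher at every labeling time. These calls are by the main scaling, and those that change with spike-in scaling are given below. Each run covers the 200 bases from 350 to 151 bases before the start codon. The sequences are the gene's strand of the RefSeq R64 reference, a different strain from W303. Capitals mark matches, on either strand, to the TATA box (TATAAA), the stress response element (AGGGG) and the Reb1 site (TTACCCG).
SPT15, chrV:464953-465152 (+): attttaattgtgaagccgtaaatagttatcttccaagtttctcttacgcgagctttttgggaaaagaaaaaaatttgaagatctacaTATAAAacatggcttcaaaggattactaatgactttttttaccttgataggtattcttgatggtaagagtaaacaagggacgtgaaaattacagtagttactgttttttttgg
SPT16, chrVII:98619-98818 (+): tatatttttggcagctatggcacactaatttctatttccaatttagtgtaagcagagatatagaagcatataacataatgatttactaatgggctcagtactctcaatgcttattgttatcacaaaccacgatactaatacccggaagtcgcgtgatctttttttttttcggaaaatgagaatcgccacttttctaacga
SPT6, chrVII:720059-720258 (+): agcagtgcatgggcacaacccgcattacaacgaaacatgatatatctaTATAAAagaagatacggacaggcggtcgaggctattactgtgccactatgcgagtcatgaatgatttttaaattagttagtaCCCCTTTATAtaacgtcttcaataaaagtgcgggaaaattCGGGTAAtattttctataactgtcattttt
TAF5, chrII:618674-618873 (-): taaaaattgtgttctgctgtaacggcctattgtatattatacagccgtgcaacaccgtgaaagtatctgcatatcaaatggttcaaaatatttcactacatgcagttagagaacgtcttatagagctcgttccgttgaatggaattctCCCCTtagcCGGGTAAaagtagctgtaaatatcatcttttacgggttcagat

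The *SPT15* window held 1 TATAAA, the *SPT6* window 2 TATAAA, 1 AGGGG and 1 TTACCCG, with a TATAAA and the AGGGG sharing a base, and the *TAF5* window 1 AGGGG and 1 TTACCCG. The *SPT16* window held none of the 3 words, which says only that these letters are not in this window. Over the 41 members, TATAAA was found in 12 windows (29.3%, against 28.8% of 6001 windows of coding genes), AGGGG in 7 (17.1% against 16.5%) and TTACCCG in 6 (14.6% against 5.35%), those of *MED2*, *SPT6*, *SPT7*, *TAF3*, *TAF5* and *TAF12*. A match describes the sequence and not a bound site.

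In steady-state RNA, 10 of the 41 genes rose and 3 fell in *def1Δ* cells by edgeR's quasi-likelihood test at an adjusted p under 0.05, where 25.3% of all 6055 genes tested rose and 23.7% fell. Of the 39 members off chromosome III, 8 rose and 3 fell. The median log2 change was 0.16 over the members and 0.04 over all genes, so the members' share of calls was near that of the transcriptome in the upward direction and below it in the downward direction. These levels are relative to the library, in which fewer cells and less RNA per cell cannot be told apart. With scaling by the *Schizosaccharomyces pombe* spike-in, 0 members and 0.248% of all genes were called. The spike-in factors were 1.28 and 1.49 for *def1Δ* and 0.628 and 2.36 for WT. The study also scaled by spike-in, with DESeq2 and a stricter cutoff (adjusted p under 0.01 and more than 2-fold). It reported a far larger share of steady-state transcripts as changed, some higher and some lower in *def1Δ*. The spike-in result here thus differs from the published result, and the cause was not tested. With an offset for coding length, 8 of the 13 calls were lost.

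Of the 4 elongation genes 3 rose and 1 did not pass. *SPT16* (YGL207W, VII:98969-102076), the large subunit of the histone chaperone FACT, was measured at 147 and 143 CPM in *def1Δ* and 63.3 and 70.2 CPM in WT, a log2 change of 1.12 (SE 0.13, adjusted p 0.000304). *SPT5* (XIII:247677-250868) was measured at 41.4 and 48.5 CPM in *def1Δ* against 20.7 and 28.1 CPM in WT (log2 change 0.88, SE 0.17, adjusted p 0.00345). *SPT6* (VII:720409-724764) was measured at 103 and 111 CPM in *def1Δ* against 67.0 and 74.2 CPM in WT (log2 change 0.60, SE 0.13, adjusted p 0.0055). For all 3 genes the strains did not overlap. The call of *SPT6* was lost without either *def1Δ* library and with the length offset, while those of *SPT16* and *SPT5* held without any single library. *SPT4*, the small partner of Spt5, did not pass, at 3.53 and 3.57 CPM in *def1Δ* and 6.89 and 3.95 CPM in WT (log2 change -0.59, SE 0.31).

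*SPT15* (YER148W, V:465303-466025), the gene of TBP, showed the largest fall among the members. It was measured at 16.2 and 15.1 CPM in *def1Δ* and 35.9 and 34.4 CPM in WT, a log2 change of -1.17 (SE 0.12, adjusted p 0.000203), with no overlap between strains. The other members that fell were *TAF9*, a histone-fold subunit of TFIID and SAGA, at -0.66 (SE 0.21, adjusted p 0.03), and *SRB2* of the Mediator head at -0.62 (SE 0.22, adjusted p 0.0433). Both calls were lost when either *def1Δ* library or WT replicate 1 was left out. *SRB2* was measured at 52.7 and 42.0 CPM in *def1Δ* and 89.3 and 56.6 CPM in WT, and *TAF9* at 10.2 and 9.96 CPM in *def1Δ* and 19.1 and 13.0 CPM in WT. The strains did not overlap for either gene, and in both the WT libraries differed more from each other than the lower of them did from *def1Δ*.

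Within Mediator, *SRB4* (V:198812-200875), the scaffold of the head module, rose to 20.0 and 19.5 CPM in *def1Δ*, against 8.72 and 10.7 CPM in WT (log2 change 1.02, SE 0.16, adjusted p 0.00138). *SRB8* of the kinase module was measured at 37.1 and 39.8 CPM in *def1Δ* and 24.3 and 28.3 CPM in WT (log2 change 0.55, SE 0.13, adjusted p 0.0102). None of the 4 middle-module genes nor the tail gene *MED2* passed. *MED2* stood at 12.7 and 9.28 CPM in *def1Δ* and 10.7 and 8.80 CPM in WT, groups that overlap.

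Among the TAFs, *TAF2* rose by 0.61 (SE 0.14), *TAF1* by 0.56 (SE 0.19), *TAF5* by 0.41 (SE 0.12) and *TAF8* by 0.40 (SE 0.14) on the log2 scale. These 4 calls, and that of *SRB8*, were lost without either *def1Δ* library. *SPT14* (XVI:218630-220088) rose to 19.4 and 21.9 CPM in *def1Δ*, against 10.2 and 11.3 CPM in WT (log2 change 0.94, SE 0.16, adjusted p 0.00163). The 4 SAGA genes and the 3 genes of histone gene control and chromatin (*SPT2*, *SPT10* and *SPT21*) had no member that passed.

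**Figure D2:**
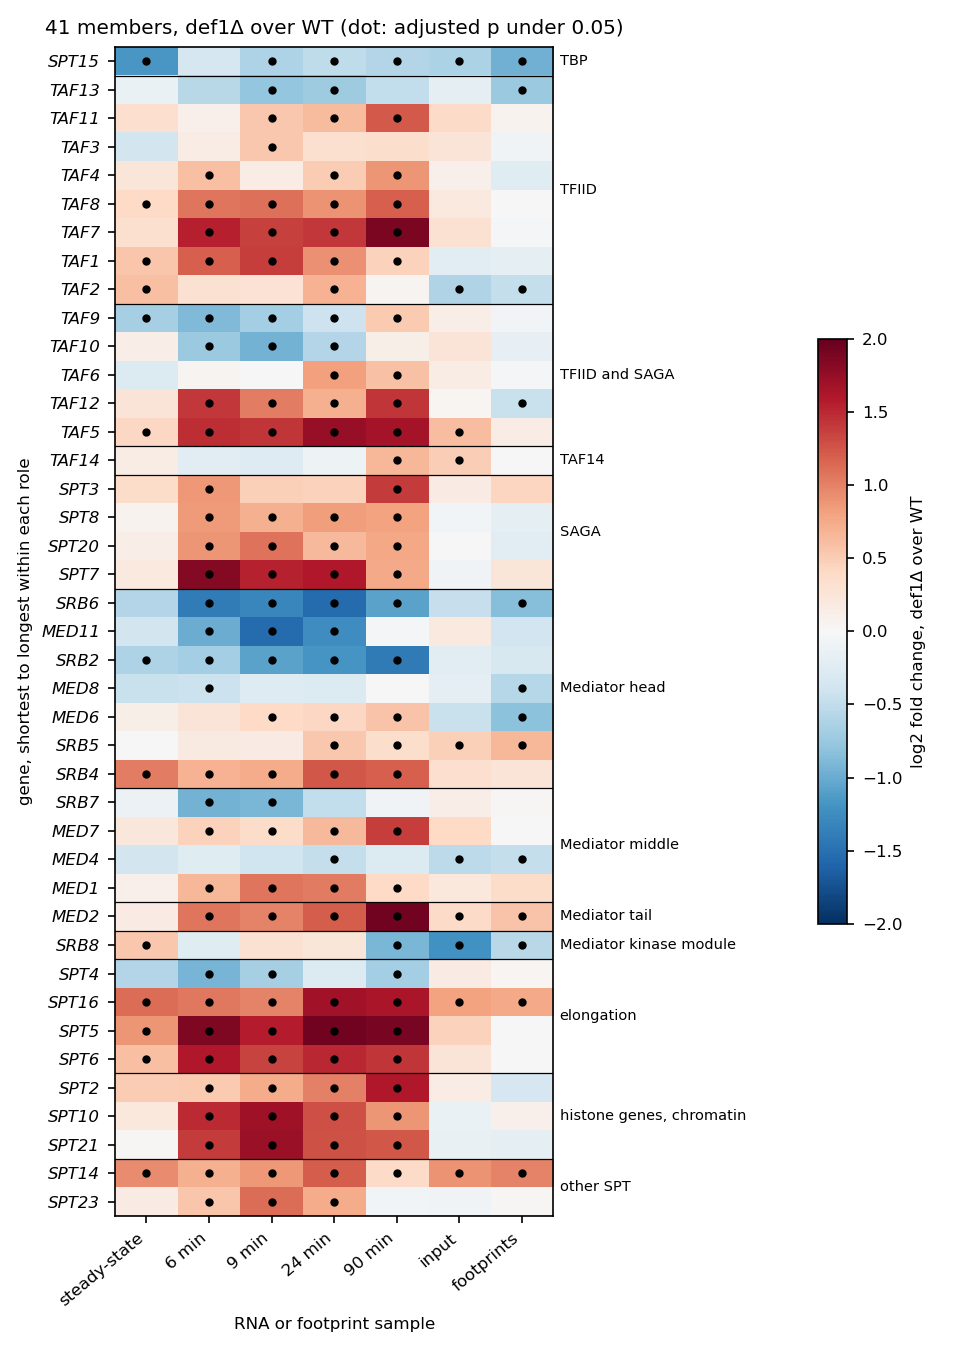
Log2 change of *def1Δ* over WT (colour) for the 41 genes (rows, grouped by role and ordered by coding length within each) in steady-state RNA, labeled RNA at 6, 9, 24 and 90 min, input RNA and footprints (columns). Dots mark an adjusted p under 0.05, which 13 genes reached in steady-state RNA, 30 at 6 min, 10 in input RNA and 13 in footprints.

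Labeled RNA separates recently made molecules from the older pool, since 4tU enters RNA only during the pulse. At 6 min, 22 of the 41 genes rose and 8 fell in *def1Δ* cells, where 29.1% of all 6499 genes rose and 28.8% fell. At 9 min, 23 rose and 9 fell (31.6% and 29.8% of all genes). At 24 min, 26 rose and 8 fell (33.8% and 28.9%), and at 90 min, 27 rose and 5 fell (32.9% and 29.5%). Without *TAF2* and *SRB8* the counts were 25 and 8 at 24 min and 27 and 4 at 90 min, with the others as given. The members' median log2 changes at the 4 times were 0.52, 0.53, 0.65 and 0.58, and those of all genes -0.05, -0.01, 0.02 and 0.00. More members rose, and fewer fell, than the background shares of the transcriptome at each time.

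Altogether 19 members rose at all 4 times and 2, *SRB2* and *SRB6*, fell at all 4. The share of all genes called alike at all 4 times is not given here. These counts, and those kept under alternatives, therefore stand without a background. The 10 that rose at all 4 times under every alternative of scaling, tool, filter, pairing and length offset were *MED2*, *SPT2*, *SPT5*, *SPT6*, *SPT7*, *SPT10*, *SPT21*, *TAF5*, *TAF7* and *TAF8*. All of these but *SPT2* also held with each library left out in turn. No fall held at all 4 times under every alternative. With spike-in scaling the median of all genes stood at 0.27, 0.19, 1.04 and 1.18 at the 4 times, and 0 members fell at 24 and 90 min, so falls at those times are relative to the rest of the labeled RNA.

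Of the 4 elongation genes 3 rose and 1 fell at 6 min. *SPT5* was measured at 149 and 166 CPM in *def1Δ* and 49.1 and 37.6 CPM in WT at 6 min, a log2 change of 1.86 (SE 0.16, adjusted p 1.09e-07). At 90 min it stood at 172 and 154 CPM in *def1Δ* against 42.2 and 45.6 CPM in WT (log2 change 1.89, SE 0.17). Its share of the labeled RNA in either strain thus hardly moved over the series. No library of a strain overlapped the other strain at any time. *SPT6* was measured at 269 and 304 CPM in *def1Δ* and 103 and 86.0 CPM in WT at 6 min (log2 change 1.60, SE 0.13), and its changes at 9, 24 and 90 min were 1.35, 1.51 and 1.44. *SPT16* was measured at 368 and 370 CPM in *def1Δ* and 194 and 160 CPM in WT at 6 min, a log2 change of 1.06 (SE 0.14), and at 415 and 441 CPM in *def1Δ* against 143 and 132 CPM in WT at 90 min, a log2 change of 1.64 (SE 0.14). The growth of this difference with time is tested below. *SPT4* differed from these, with falls of 0.92 at 6 min and 0.68 at 90 min on the log2 scale, and with spike-in scaling its change at 90 min was 0.50.

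All 4 SAGA genes rose at 6 and at 90 min. *SPT7*, the scaffold on which SAGA assembles, was measured at 126 and 127 CPM in *def1Δ* and 37.1 and 34.0 CPM in WT at 6 min (log2 change 1.83, SE 0.14, adjusted p 2.71e-08). At 90 min it stood at 73.8 and 72.3 CPM in *def1Δ* and 42.4 and 44.3 CPM in WT (log2 change 0.75, SE 0.14). *SPT20*, a structural subunit, changed by 0.89 at 6 min and 0.77 at 90 min. The 3 genes of histone gene control and chromatin rose at all 4 times: *SPT10*, which encodes an activator that binds histone gene promoters, changed by 1.50 at 6 min (SE 0.18) and 0.88 at 90 min (SE 0.20), and *SPT21*, whose product works with Spt10, by 1.40 (SE 0.13) and 1.24 (SE 0.14). *SPT2*, which encodes a histone-binding protein, changed by 1.60 at 90 min (SE 0.16).

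The TAF genes divided. *TAF5*, a WD-repeat subunit of TFIID and SAGA, was measured at 164 and 181 CPM in *def1Δ* and 71.5 and 52.6 CPM in WT at 6 min (log2 change 1.48, SE 0.15), and its change at 24 min reached 1.75 (SE 0.16). *TAF7* changed by 1.55 (SE 0.21), *TAF12* by 1.41 (SE 0.14) and *TAF1* by 1.19 (SE 0.17) at 6 min. The histone-fold subunits *TAF9* and *TAF10* fell at 6 min, by 0.88 (SE 0.17) and 0.75 (SE 0.22). *TAF9* was called in both directions over the series: 22.7 and 21.7 CPM in *def1Δ* against 36.7 and 44.8 CPM in WT at 6 min, and 67.2 and 74.6 CPM in *def1Δ* against 55.2 and 43.4 CPM in WT at 90 min. With the length offset its change at 9 min was 0.07 and at 24 min 0.32, and with spike-in scaling 0.62 at 24 min, so its falls at these times did not keep their sign. *TAF14*, shared by TFIID and several other complexes, did not pass at 6, 9 or 24 min and rose by 0.67 (SE 0.17) at 90 min.

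Mediator genes moved in both directions within a module. *MED2* of the tail was measured at 40.3 and 50.0 CPM in *def1Δ* and 22.1 and 21.0 CPM in WT at 6 min, and at 80.6 and 81.5 CPM in *def1Δ* and 20.4 and 22.0 CPM in WT at 90 min, where its log2 change of 1.93 (SE 0.15, adjusted p 2.3e-08) was the largest of the 41. *SRB4* changed by 0.70 at 6 min (SE 0.13) and 1.19 at 90 min (SE 0.14). At 6 min 4 of the 7 head genes fell, *SRB6* by 1.40 (SE 0.32), *MED11* by 1.00 (SE 0.21), *SRB2* by 0.67 (SE 0.17) and *MED8* by 0.43 (SE 0.14). Of the 4 middle genes *SRB7* fell by 0.94 (SE 0.22), while *MED1* rose by 0.66 (SE 0.14) and *MED7*, about as short as *MED8*, by 0.47 (SE 0.15). The head genes *MED6* and *SRB5*, the middle gene *MED4* and the kinase-module gene *SRB8* did not pass. *SRB6* had 4.43 and 3.98 CPM in *def1Δ* and 8.48 and 13.6 CPM in WT at 6 min. With the length offset the 6 min change of *MED8* was 0.06, and with spike-in scaling the 90 min change of *SRB6* was 0.09.

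*SPT15* did not pass at 6 min, at 68.2 and 80.6 CPM in *def1Δ* and 91.0 and 97.3 CPM in WT (adjusted p 0.0533), and fell by 0.62 at 9 min (SE 0.14), 0.51 at 24 min (SE 0.14) and 0.58 at 90 min (SE 0.15). With spike-in scaling its changes at 24 and 90 min were 0.51 and 0.61. *SPT14* changed by 0.71 at 6 min (SE 0.13), 1.21 at 24 min (SE 0.14) and 0.39 at 90 min (SE 0.14). *SPT23*, which encodes a membrane-anchored activator of fatty acid desaturation, changed by 0.56 at 6 min (SE 0.18), but by -0.24 with the length offset. At 90 min it did not pass, with a change of -0.05, and 1.13 with spike-in scaling.

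*TAF2* passed only at 24 min, where it was measured at 43.4 and 42.7 CPM in *def1Δ* and 30.1 and 22.8 CPM in WT (log2 change 0.69, SE 0.17), which is 1.80 above the median of chromosome III. *SRB8* did not pass at 6, 9 or 24 min and fell by 0.91 at 90 min (SE 0.27), a value 0.12 above that median and 0.28 with spike-in scaling.

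**Figure D3:**
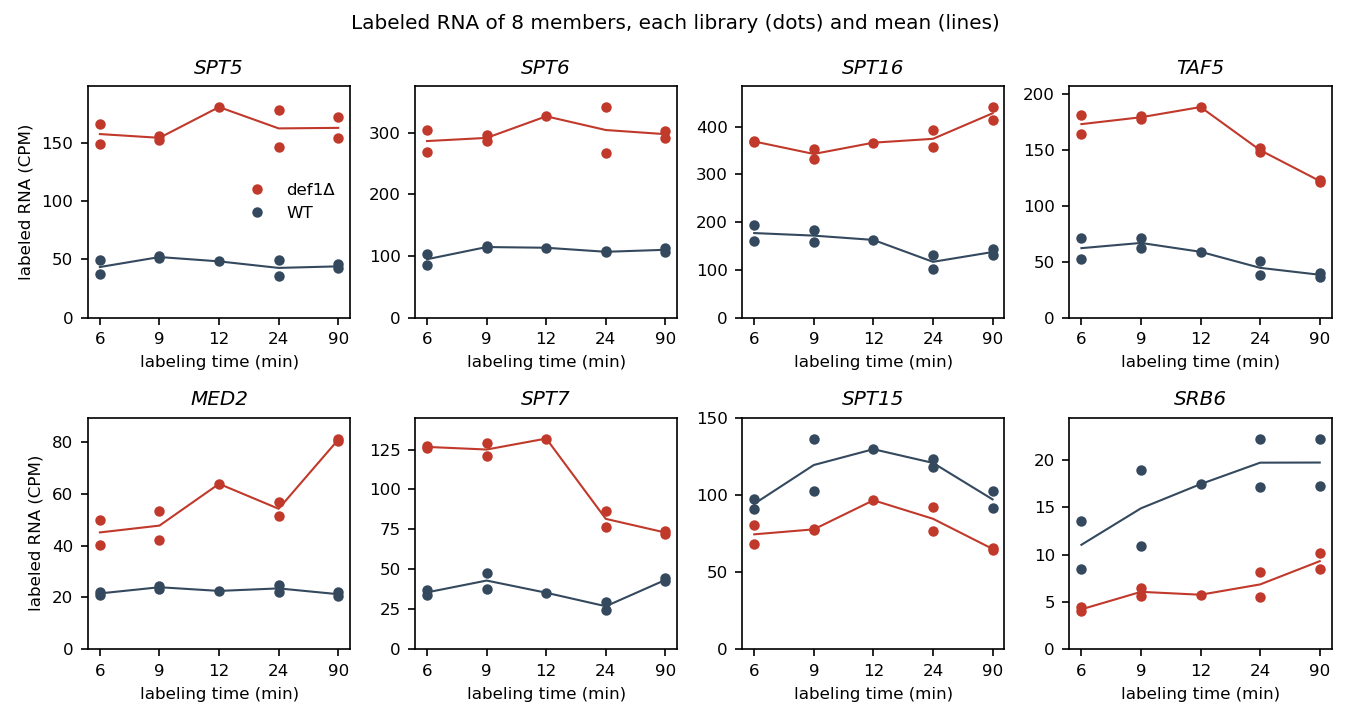
Labeled RNA in CPM (vertical axes) against labeling time in min (horizontal axes, times evenly spaced and not to scale) for *SPT5*, *SPT6*, *SPT16*, *TAF5*, *MED2*, *SPT7*, *SPT15* and *SRB6*, with each *def1Δ* and WT library as a dot and the mean of a strain as a line. *SPT5* stayed between 146 and 181 CPM in *def1Δ* and between 36.0 and 53.0 CPM in WT, while *MED2* reached 80.6 and 81.5 CPM in *def1Δ* at 90 min and stayed at 20.4 to 24.9 CPM in WT.

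The direction of the change in labeled RNA followed the length of the coding region. At 6 min, of the 15 members of at most 1000 bases 1 rose and 8 fell, of the 15 with 1001 to 2000 bases 12 rose and none fell, and of the 11 longer members 9 rose and none fell. The shares of all coding genes called in each class are not given here, so only the medians can be set beside a background. The class medians were -0.56, 0.86 and 1.19 for the members and -0.52, 0.09 and 0.70 for all coding genes. The median of the short members thus lay close to that of other short genes, and the medians of the longer classes lay above those of all genes of their size. Spearman's rho between coding length and log2 change was 0.787 over the 41 members and 0.569 over all coding genes at 6 min, 0.450 and 0.295 at 90 min, 0.694 and 0.283 in steady-state RNA, and 0.023 and 0.089 in input RNA. These are descriptions over genes of the same libraries. Fragmentation, RNA integrity and recovery of labeled RNA by length were not measured, and their part in these values was not tested.

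**Figure D4:**
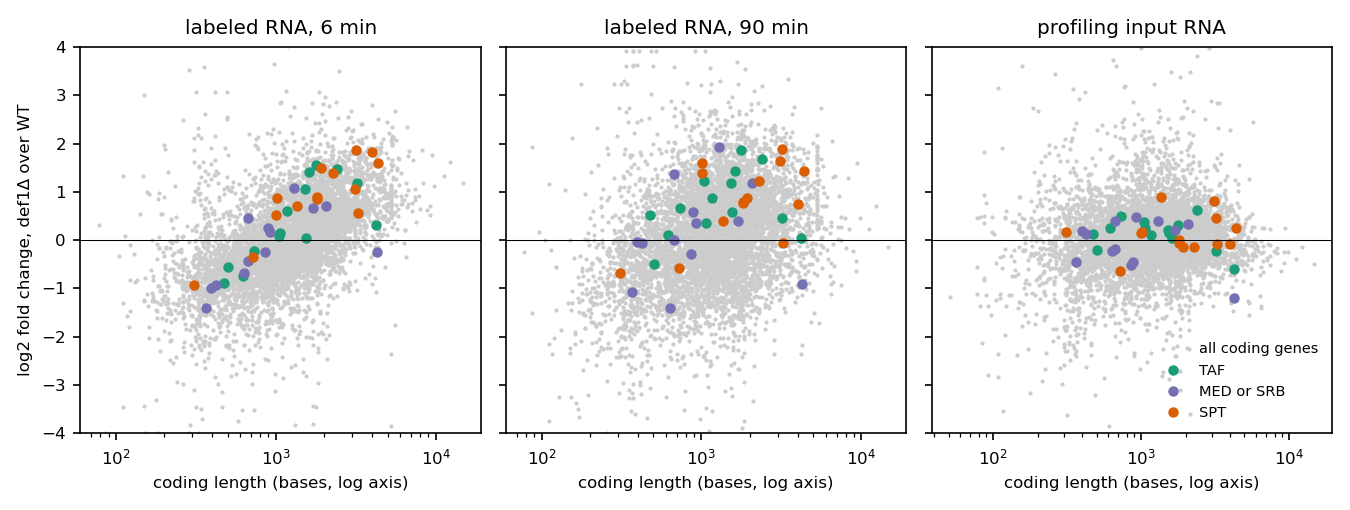
Log2 change of *def1Δ* over WT (vertical axes, shown from -4 to 4) against coding length in bases (horizontal log axes) for all coding genes (grey) and the 41 members (coloured by *TAF*, *MED* or *SRB*, and *SPT* names) in labeled RNA at 6 min, labeled RNA at 90 min and input RNA. Members rise with length at 6 min (rho 0.787) and show no such slope in input RNA (rho 0.023). Outside the range shown are 31, 44 and 8 genes, none of them a member.

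Within each strain, comparing 90 with 6 min of labeling sets RNA from a long pulse, the newest molecules included, against RNA made within 6 min. By the study *def1Δ* cells grow more slowly, so 90 min is a smaller part of a doubling in them than in WT. The part of growth in the differences between strains was not tested. The values are shares of the labeled RNA of a library, so higher or lower at 90 min describes a share and not an amount per cell. In *def1Δ* cells 18 members were higher and 12 lower at 90 min, where 33% of all genes were higher and 36.4% lower. In WT cells 9 were higher and 15 lower, where 23.4% and 34% of all genes were. Of the 39 members off chromosome III, 18 were higher and 10 lower in *def1Δ*, and 9 and 13 in WT. The largest increase in WT was that of *SRB2*, at 145 and 160 CPM at 90 min against 37.9 and 43.4 CPM at 6 min (log2 change 1.90, SE 0.17). In *def1Δ* it was that of *MED11*, at 34.7 and 35.8 CPM at 90 min against 9.89 and 10.7 CPM at 6 min (log2 change 1.77, SE 0.20). *SPT23* showed the largest decrease in either strain, at 122 and 121 CPM at 90 min and 513 and 502 CPM at 6 min in *def1Δ* (log2 change -2.06, SE 0.18), and 129 and 123 CPM at 90 min and 349 and 339 CPM at 6 min in WT (log2 change -1.45, SE 0.19). These comparisons also followed coding length, with rho of -0.793 in *def1Δ* and -0.670 in WT over the members. With spike-in scaling 10 of the 30 calls in *def1Δ* and 14 of the 24 in WT were lost.

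The difference between the strains in this change was called for 13 members, 10 with a larger log2 change in *def1Δ* and 3 with a smaller, where 16.7% and 13.2% of all genes were. *TAF9* differed most, by 1.40 (SE 0.24, adjusted p 0.000688), with a change over time of 1.68 in *def1Δ* and 0.28 in WT. *TAF11* differed by 1.12 (SE 0.19), *SPT2* by 1.08 (SE 0.21), *MED7* by 0.91 (SE 0.21), *MED2* by 0.86 (SE 0.21) and *SPT16* by 0.58 (SE 0.20). *SPT7* differed by -1.08 (SE 0.19, adjusted p 0.000787): its change over time was -0.79 in *def1Δ* (SE 0.13), but 0.41 with the length offset and 0.03 with spike-in scaling, and 0.29 in WT (SE 0.14), where it did not pass. For *SPT5* the strains' changes over time were 0.05 and 0.02 and their difference 0.03 (SE 0.23, adjusted p 0.949). With spike-in scaling the count was 21, none of them smaller in *def1Δ*. The share of all genes called with that scaling is not given here.

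In input RNA of ribosome profiling, a separate experiment with cycloheximide, 6 members rose and 4 fell in *def1Δ*, where 21.8% of all 6434 genes rose and 18.6% fell. Without *TAF2* and *SRB8*, 6 rose and 2 fell. The median log2 change was 0.15 over the members and -0.01 over all genes. Calls were therefore fewer among the members than in the transcriptome as a whole.

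*SPT16* was measured at 1339, 1572 and 1715 CPM in *def1Δ* and 840, 765 and 1033 CPM in WT (log2 change 0.81, SE 0.15, adjusted p 0.00158). *SPT14* was measured at 59.1, 67.7 and 82.8 CPM in *def1Δ* and 37.0, 34.3 and 41.1 CPM in WT (log2 change 0.90, SE 0.14, adjusted p 0.00055). *SPT15* was measured at 123, 133 and 134 CPM in *def1Δ* and 192, 198 and 219 CPM in WT (log2 change -0.64, SE 0.11, adjusted p 0.000963). None of these 3 genes overlapped between strains, and each kept its call at an adjusted p under 0.05 under every alternative of scaling, tool, filter, pairing, samples fitted and length offset and with each library left out. All 3 changes were under 2-fold. *MED4* of the middle module, also under 2-fold, kept its call under the same settings, falling to 29.4, 31.0 and 31.2 CPM in *def1Δ*, against 40.7, 44.1 and 46.4 CPM in WT (log2 change -0.52, SE 0.10).

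*TAF5* rose by 0.62 (SE 0.17), *TAF14* by 0.49 (SE 0.13), *SRB5* by 0.48 (SE 0.14) and *MED2* by 0.39 (SE 0.13). The calls of *TAF5* and *SRB5* were each lost with 3 of the 6 libraries of the strains left out singly, that of *MED2* with 5 and that of *TAF14* without *def1Δ* replicate 2. *SPT5*, at 341, 350 and 232 CPM in *def1Δ* and 202, 184 and 288 CPM in WT, overlapped between strains and did not pass (log2 change 0.46, SE 0.19, adjusted p 0.0805). *SPT6* changed by 0.25 (SE 0.12, adjusted p 0.114) and *SRB4* by 0.33 (SE 0.13, adjusted p 0.0575). With the replicate number as a block 12 members were called in place of 10, adding *SRB4* (adjusted p 0.0327) and *MED7* of the middle module (log2 change 0.43, adjusted p 0.0283).

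*SRB8* was measured at 19.6, 17.6 and 20.9 CPM in *def1Δ* and 46.9, 46.0 and 41.2 CPM in WT, a log2 change of -1.20 (SE 0.11, adjusted p 2.67e-05), 0.21 below the median of chromosome III. *TAF2* fell by 0.60 (SE 0.11), 0.39 above that median. In steady-state RNA both had risen. The 2 genes were the only members with opposite calls in the 2 kinds of total RNA, and their chromosome differed between the *def1Δ* libraries of these experiments as described above.

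Input RNA of *dhh1Δ* cells was also set against WT. The libraries differ in mating type genes and *DHH1* reads persist, as given above, so changes cannot be credited to loss of the helicase. Here 5 members rose and 6 fell, where 20.4% of all genes rose and 16.7% fell, and the members' median was 0.02. Of the 39 members off chromosome III, 4 rose and 5 fell. *TAF7* rose most, to 137, 146 and 153 CPM in *dhh1Δ*, against 77.0, 51.5 and 79.1 CPM in WT (log2 change 1.07, SE 0.16, adjusted p 0.000526). *SPT14* was measured at 72.7, 79.6 and 72.3 CPM in *dhh1Δ*, all above the WT values already given (log2 change 1.00, SE 0.14). *SPT15* was measured at 107, 113 and 129 CPM in *dhh1Δ*, all below WT (log2 change -0.80, SE 0.11, adjusted p 0.000251). *MED4* fell by 0.74 (SE 0.10) and *SRB8* by 0.42 (SE 0.11). *SPT14* was thus called higher, and *SPT15*, *MED4* and *SRB8* lower, in both mutants, which were set against the same WT libraries. Of the remaining calls, *SRB6* (-0.68, SE 0.18), *SPT10* (-0.46, SE 0.14) and *TAF4* (-0.31, SE 0.10) were lower and *SRB7* (0.51, SE 0.15), *MED11* (0.49, SE 0.17) and *TAF2* (0.35, SE 0.11) higher, each with its call lost when at least 1 library was left out.

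Set directly against *dhh1Δ*, 6 members were higher and 4 lower in *def1Δ* input RNA, where 12.6% of all genes were higher and 13.1% lower. Without *TAF2* and *SRB8* the counts were 6 and 2. *SPT16* was higher in *def1Δ* (log2 difference 0.79, SE 0.15, adjusted p 0.00324), its *dhh1Δ* values of 834, 947 and 896 CPM lying within the WT range. *SPT5* was higher by 0.76 (SE 0.19), *TAF14* by 0.56 (SE 0.13), *MED1* of the middle module by 0.49 (SE 0.10), *TAF4* by 0.42 (SE 0.10) and *SRB4* by 0.39 (SE 0.13). *TAF7* was lower by 0.77 (SE 0.16) and *SPT23* by 0.32 (SE 0.10). The calls of *SPT5*, *SRB4* and *SPT23* were lost with 4, 5 and 5 of these libraries left out singly. *SPT15* did not pass, with a difference of 0.16 (SE 0.11, 95% interval -0.04 to 0.37). *TAF2* and *SRB8* were lower in *def1Δ* by 0.95 and 0.78, within 0.1 of the chromosome III median of -0.87.

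Footprints report the mRNA under translating ribosomes. In *def1Δ* footprints 4 members rose and 9 fell, where 19.3% of all 5601 genes rose and 20.5% fell. Without *TAF2* and *SRB8*, 4 rose and 7 fell. *SPT15* was measured at 67.2, 70.8 and 74.2 CPM in *def1Δ* and 127, 154 and 134 CPM in WT (log2 change -0.97, SE 0.13, adjusted p 0.000319). *SPT16* was measured at 620, 652 and 593 CPM in *def1Δ* and 360, 348 and 389 CPM in WT (log2 change 0.76, SE 0.11, adjusted p 0.000575). *SPT14* was measured at 23.9, 32.3 and 26.9 CPM in *def1Δ* and 15.4, 11.2 and 15.6 CPM in WT (log2 change 0.99, SE 0.19, adjusted p 0.00245). The strains did not overlap for any of these. *SPT14* and *SPT16* were therefore called higher, and *SPT15* lower, in steady-state RNA, in input RNA and in footprints, and no other member was called in 1 direction in all 3.

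**Figure D5:**
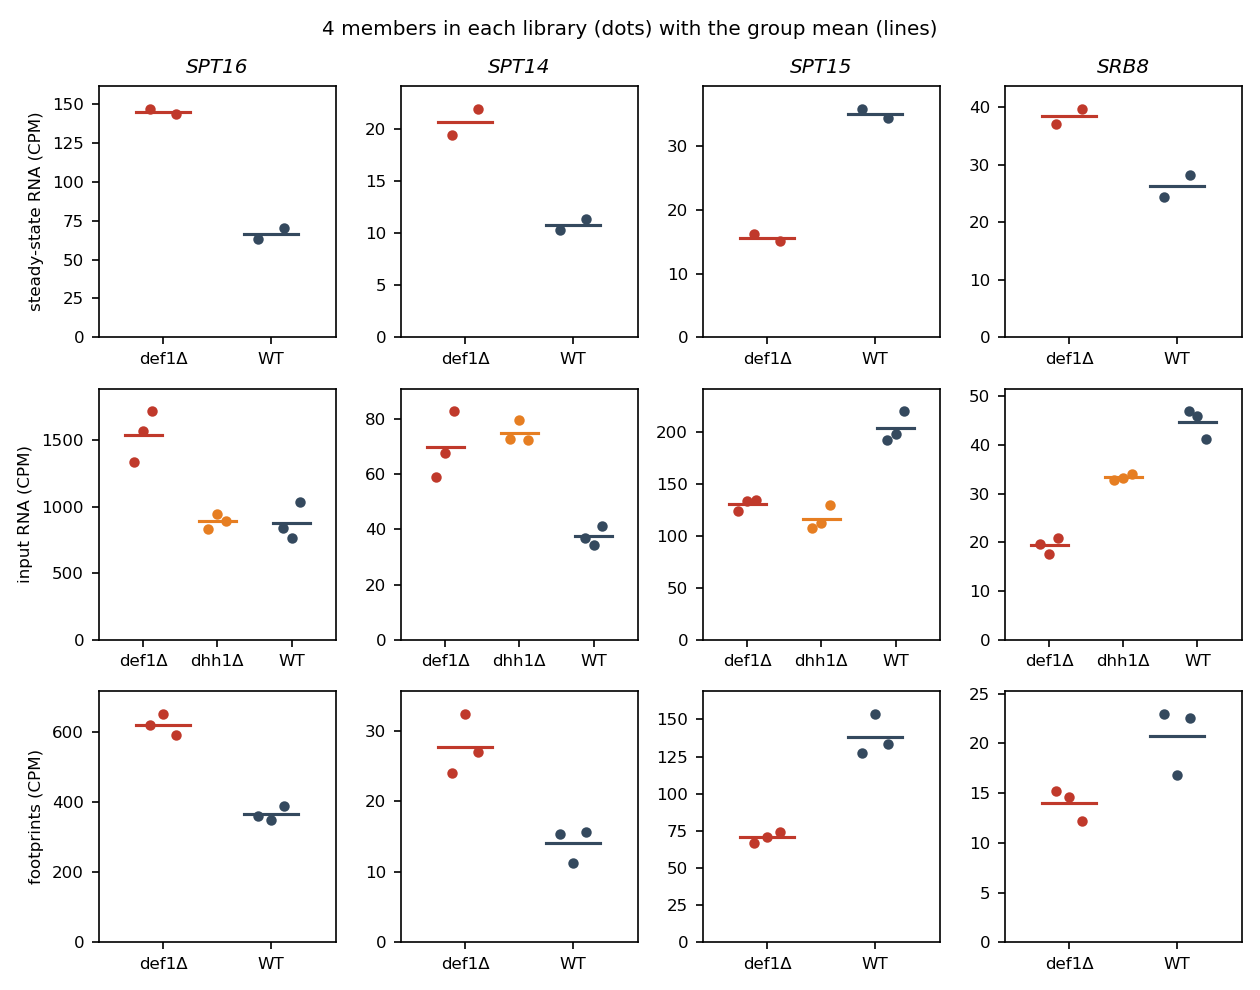
CPM per library (vertical axes) of *SPT16*, *SPT14*, *SPT15* and *SRB8* in steady-state RNA, input RNA and footprints, with *def1Δ* left of WT, *dhh1Δ* input between them, dots for libraries and lines for group means. *SPT16* and *SPT14* lie higher and *SPT15* lower in *def1Δ* in all 3, while *SRB8* lies at 37.1 and 39.8 CPM in *def1Δ* against 24.3 and 28.3 CPM in WT steady-state RNA and at 17.6 to 20.9 CPM in *def1Δ* against 41.2 to 46.9 CPM in WT input RNA.

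Of the other footprint calls, *SRB5* of the Mediator head rose to 29.2, 27.5 and 23.5 CPM in *def1Δ*, against 15.8, 16.2 and 18.7 CPM in WT (log2 change 0.66, SE 0.16), and *MED2* rose by 0.57 (SE 0.15). *SRB6* fell by 0.86 (SE 0.24), *MED6* by 0.83 (SE 0.22), *TAF13* by 0.74 (SE 0.19), *MED8* by 0.56 (SE 0.15), *SRB8* by 0.56 (SE 0.19), *TAF2* by 0.48 (SE 0.14), *MED4* by 0.48 (SE 0.17) and *TAF12* by 0.45 (SE 0.14). The falls of *SRB6*, *MED8* and *MED4* were lost with the length offset. Leaving out single libraries ended the calls of *MED2* and *MED6* in 1 case each, of *MED8* and *TAF2* in 2, of *TAF12* in 4 and of *MED4* and *SRB8* in 5. *SPT5* and *SPT6*, whose labeled RNA was more than 2-fold higher in *def1Δ* at all 4 times, did not pass in footprints, with log2 changes of 0.01 (SE 0.14) and -0.01 (SE 0.11).

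Translational efficiency, the change in footprints beyond that in input RNA, was called for 0 members in either direction, where 0.514% of all genes were higher and 0.0934% lower. By edgeR 3 members, *SRB8* (0.67, SE 0.24), *TAF13* (-0.52, SE 0.23) and *TAF14* (-0.47, SE 0.19), had an unadjusted p under 0.05, and DESeq2 also called 0. The members' median was -0.17, against -0.02 for all genes. For *SPT15* the estimate was -0.30 (SE 0.17, 95% interval -0.63 to 0.02) and for *SPT16* -0.02 (SE 0.21, 95% interval -0.44 to 0.39).

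Other subunits of the same complexes, taken from lists written for this comparison, gave a setting for the members. The shares of all genes against which these counts stand are 25.3% higher and 23.7% lower in steady-state RNA, 29.1% and 28.8% at 6 min, and 21.8% and 18.6% in input RNA. The lists were not tested against them. Of 12 Mediator genes with other names, 4 rose and 0 fell in steady-state RNA, 8 rose and 1 fell at 6 min of labeling, and 1 rose in input RNA. Of 10 other SAGA genes, 1 rose and 3 fell in steady-state RNA, 5 rose and 2 fell at 6 min, and 0 rose and 6 fell in input RNA, while none of the 4 SAGA members was called in input RNA. Of 20 general factor genes, 1 rose and 1 fell in steady-state RNA, 10 rose and 2 fell at 6 min, and 4 rose in input RNA. Of 11 elongation partner genes, 3 rose and 2 fell in steady-state RNA, 6 rose and 2 fell at 6 min, and 7 rose in input RNA, where *SPT16* was the only elongation member called. Of 5 other regulators of histone genes, 1 rose in steady-state RNA, 4 at 6 min and 0 in input RNA.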

How the data were processed

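Steady-state and 4tU-labeled RNA were measured as rRNA-depleted, stranded libraries, and the authors deposited estimated counts from RSEM 1.2.28 per gene, which were rounded to whole numbers here. For ribosome profiling the deposited tables hold whole-number counts per gene. The submitters' processing notes name STAR, HISAT2, featureCounts and the R64 build, and which of them made the profiling tables is not given in the sources used here. The authors scaled their RNA-seq by *S. pombe* spike-in. Here TMM scaling was the main choice, and spike-in factors, recovered from the authors' normalized values, an alternative. Footprint columns were taken as the replicates that their names and barcodes give, while the labels list the same samples as sequencing runs. If the columns were runs of the same libraries, the footprint p-values would be too small. A further 3 footprint columns, of *dhh1Δ*, could not be tied to single samples and were not used.

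A gene entered a fit if its counts summed to 15 or more there, and was tested with edgeR 4.0.16 (glmQLFit and glmQLFTest, R 4.3.3), with Benjamini-Hochberg adjustment over all genes tested and an adjusted p under 0.05 as a call. The 18 labeled libraries shared a fit, as did the 9 input libraries. SE is the absolute log2 change divided by the square root of F, and 95% intervals are 1.96 SE. The study calls the replicates of total and labeled RNA biological. For profiling the sources used here do not state separate cultures, and its p-values measure a spread that may be technical. Alternatives were DESeq2 1.42.0, RLE factors, no filter, spike-in scaling, the replicate number as a block, only the groups compared, the stricter cutoffs of adjusted p under 0.01 and more than 2-fold, each library left out, and an offset per library for coding length, which was chosen after seeing the data. In input RNA, same-numbered *def1Δ* and WT libraries deviated together (r of 0.377, 0.102 and 0.425), so these numbers were taken as pairs by the rule of at least 3 pairs with every r over 0.1. Replicate 2 only just met it, and its *def1Δ* library correlated better with a WT library of another number. The other comparisons had 2 pairs or an r below that. On simulated counts, 178 of 200 genes with a log2 change of 1 were recovered for steady-state RNA, 193 for labeled RNA at 6 min, 190 for input RNA, 180 for footprints and 116 for translational efficiency. False calls were 4, 14, 11, 6 and 4 in that order. The changed genes were drawn from the better counted ones. Recovery therefore does not describe smaller changes or members with few counts, such as *TAF7* in steady-state RNA (27 to 38 counts).

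The members and all lists were chosen with earlier results of these data known. Named genes were the called members, at most the 10 largest rises and 10 largest falls per comparison, plus *SPT15*, *TAF1*, *TAF14*, *SRB4*, *MED2*, *SPT5*, *SPT6*, *SPT16*, *SPT7*, *SPT20*, *SPT10*, *SPT21*, *SPT14* and *SPT23* in all. Others named were chosen after their values were seen. Coordinates and sequences are from RefSeq R64, and counting error alone is covered by the depths given.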

Additional observations from a re-analysis of the deposited data

Results flagged for a closer look

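The change of labeled RNA between 6 and 90 min differed between *def1Δ* and WT for 13 members by the test of the difference itself (edgeR's quasi-likelihood test, adjusted p under 0.05), and these values are log2 differences of *def1Δ* against WT. Among TAFs they were 1.40 for *TAF9*, 1.12 for *TAF11*, 0.90 for *TAF14*, 0.86 for *TAF10* and -0.73 for *TAF1*. Among Mediator genes they were 0.96 for *MED11*, 0.91 for *MED7*, 0.87 for *SRB7*, 0.86 for *MED2* and -0.74 for *SRB2*. Among SPT genes they were 1.08 for *SPT2*, 0.58 for *SPT16* and -1.08 for *SPT7*. With spike-in scaling the value of *SRB2* was 0.10 and that of *TAF1* 0.18.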

How the results depend on the processing

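Counts of called members moved by more than 1.5 times under 3 alternatives and with some single libraries left out. With an adjusted p under 0.01 and more than 2-fold they were 3 for steady-state RNA, 13, 16, 16 and 16 for labeled RNA at 6, 9, 24 and 90 min, 13 and 4 for 90 over 6 min in *def1Δ* and WT, 4 for the difference between them, 1, 2 and 0 for input RNA (*def1Δ* over WT, *dhh1Δ* over WT, *def1Δ* over *dhh1Δ*) and 0 for footprints. With spike-in scaling they were 0 for steady-state RNA, 10 for 90 over 6 min in WT (6 higher, 4 lower) and 21 for the strain difference, and with the length offset 6 for steady-state RNA. In WT, 90 over 6 min split 11 and 11 with RLE factors and 13 and 9 with only the groups compared. Labeled RNA split 22 and 1, 21 and 5, 32 and 0 and 35 and 0 at the 4 times with spike-in scaling. The medians of all genes with that scaling were also above 0 at these times, as given above. The shares of all genes called for labeled RNA with that scaling are not given here, so these counts stand without a background. The replicate block gave 12 calls in steady-state RNA, 32, 32, 35 and 32 at the 4 labeling times, 30 and 24 for 90 over 6 min in *def1Δ* and WT, 14 for the strain difference, 12, 16 and 11 in input RNA, 12 in footprints and 0 for translational efficiency. In *def1Δ* over WT input RNA, where the numbers were taken as pairs by the rule given above, it added *MED7* and *SRB4* and changed no other call.

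Leaving out single libraries gave 5 to 16 calls in steady-state RNA (5 without either *def1Δ* library), 28 to 28, 28 to 33, 28 to 33 and 26 to 31 in labeled RNA at the 4 times, 26 to 30 and 15 to 21 for 90 over 6 min in *def1Δ* and WT (15 without WT 6 min replicate 1), and 6 to 14 for the strain difference (6 without *def1Δ* 90 min replicate 2, 8 without WT 6 min replicate 2 or either WT 90 min library). It gave 7 to 12, 5 to 14 and 7 to 9 in input RNA (for *dhh1Δ* over WT, 5 without *dhh1Δ* replicate 2 and 7 without replicate 3), 7 to 12 in footprints (7 without *def1Δ* replicate 2, 8 without WT replicate 3) and 0 for translational efficiency.

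The length offset turned the sign of 21 values for named genes, the cause of which was not tested. In *def1Δ* over WT these became 0.060 (*MED8*) and -0.24 (*SPT23*) at 6 min, 0.17 (*SPT4*) and 0.071 (*TAF9*) at 9 min, -0.26 (*SPT23*), -0.069 (*TAF1*) and 0.32 (*TAF9*) at 24 min, and -0.0051 (*TAF1*) at 90 min. For 90 over 6 min in *def1Δ* they became 0.022 (*SPT20*), 0.41 (*SPT7*), 0.36 (*TAF2*) and 0.30 (*TAF5*), and in WT -0.0027 (*MED11*), -0.31 (*SPT15*), 0.36 (*SPT16*), 0.056 (*SPT20*), 0.42 (*SRB4*), -0.029 (*SRB6*), -0.052 (*SRB7*), 0.14 (*TAF1*) and 0.20 (*TAF2*). Spike-in scaling turned 16 values, also with the cause not tested: at 24 min 0.57 (*MED4*), 0.51 (*SPT15*), 0.47 (*TAF10*), 0.33 (*TAF13*), 0.96 (*TAF14*) and 0.62 (*TAF9*), at 90 min 0.61 (*SPT15*), 1.13 (*SPT23*), 0.50 (*SPT4*), 0.087 (*SRB6*) and 0.28 (*SRB8*), for 90 over 6 min in *def1Δ* 0.33 (*SPT20*), 0.034 (*SPT7*) and 0.33 (*TAF5*), and for the strain difference 0.10 (*SRB2*) and 0.18 (*TAF1*). No other alternative turned a sign.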

Other observations

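The ratio of footprints to input RNA, each in CPM, had a median of 0.499 in *def1Δ* and 0.498 in WT over the members, against 0.483 and 0.504 over all genes. *MED6* of the Mediator head stood far above the others, at 14.9 in *def1Δ* and 19.6 in WT, and its input RNA was among the lowest of the members at 0.838, 1.12 and 1.62 CPM in *def1Δ* and 1.16, 2.18 and 1.52 CPM in WT. *TAF13* had the lowest ratio, at 0.0965 in *def1Δ* and 0.142 in WT. By annotated coordinates only *TAF2* among the members overlaps another gene, and *MED6* and *TAF13* do not. Whether reads shared with neighbouring genes bear on these ratios was not tested.

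The libraries at 12 min of labeling, 1 per strain, entered no contrast. *SPT5* stood at 181 CPM in *def1Δ* and 48.2 CPM in WT, *SPT6* at 326 CPM in *def1Δ* and 113 CPM in WT, *MED2* at 63.9 CPM in *def1Δ* and 22.5 CPM in WT, and *SPT15* at 96.5 CPM in *def1Δ* and 130 CPM in WT.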
